A study of Mus musculus with 4 samples.

Results

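Osteopontin, encoded by Spp1, and the genes of its main cell-surface receptors were followed through the cell types of the mouse common bile duct. The 7 genes were Spp1, the hyaluronan receptor gene Cd44, and the integrin subunit genes Itgav, Itgb1, Itgb3, Itgb5 and Itgb6. They were chosen by name as the ligand and its receptors and found by Ensembl ID, 7 of the 30406 genes listed in every library. Single-cell libraries had been made from whole micro-dissected common bile ducts with the droplet-based 10x Chromium 3′ chemistry, which counts unique molecular identifiers (UMIs) near the 3′ end of each transcript. One group, 1 library, carried the genotype Prom1_BcatGOF, which the series' design text describes as mosaic Ctnnb1 gain of function; Ctnnb1 encodes β-catenin, and the library is named GOF here. The other group, 3 libraries, was wild type (WT). All ducts were untreated. The genotype name includes Prom1, but the labels do not state whether Prom1 is the driver of recombination. They give neither the animals' ages nor the construct or the share of recombined cells. They also do not say whether each WT library was made from its own animal. The p-values below therefore reflect the scatter of these libraries alone, and that scatter may be technical.

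Osteopontin is a secreted phosphoprotein that is made by cholangiocytes, the epithelial cells of bile ducts, by activated macrophages and by matrix-producing stromal cells. Its RGD motif is bound by integrins that pair the αv chain with a β chain, and it is also a ligand of CD44. An integrin is a dimer of 1 α and 1 β chain that couples the extracellular matrix to the cytoskeleton. The αv chain, from Itgav, pairs with the products of Itgb1, Itgb3, Itgb5 and Itgb6. The β6 chain is largely restricted to epithelia and activates latent TGF-β. The β3 chain is known from platelets, osteoclasts and endothelium, and the β1 chain pairs with many α chains.

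The promoters of Spp1 and Itgb6 are shown because these members passed the test between GOF and WT cells in fibroblasts or in epithelium. The sequences are from RefSeq (GRCm38.p6), run from 250 bases before to 50 bases after an annotated start, and read along the strand of the gene. The Spp1 window lies at chr5:104434861-104435160 on the plus strand, and the Itgb6 window at chr2:60722554-60722853 on the minus strand.
Spp1: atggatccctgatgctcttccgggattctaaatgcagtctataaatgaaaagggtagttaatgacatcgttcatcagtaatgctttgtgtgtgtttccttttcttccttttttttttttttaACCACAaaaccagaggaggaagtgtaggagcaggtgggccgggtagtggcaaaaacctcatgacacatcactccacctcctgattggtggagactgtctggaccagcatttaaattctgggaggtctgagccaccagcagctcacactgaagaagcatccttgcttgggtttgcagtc
Itgb6: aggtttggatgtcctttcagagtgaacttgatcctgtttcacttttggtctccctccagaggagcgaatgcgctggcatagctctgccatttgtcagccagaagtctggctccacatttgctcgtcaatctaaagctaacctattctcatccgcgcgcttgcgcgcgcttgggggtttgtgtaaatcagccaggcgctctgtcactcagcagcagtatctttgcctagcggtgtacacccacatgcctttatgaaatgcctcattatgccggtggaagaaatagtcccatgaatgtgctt
The capitals mark ACCACA, the reverse complement of the RUNX core motif TGTGGT, which begins 128 bases before the Spp1 start. Altogether 8 windows of 6 members were in the RefSeq table. They were searched on both strands for 4 motifs, which do not overlap each other. CTTTGA, the TCF/LEF core read by β-catenin's DNA-binding partners, occurred in 0 of these 8 windows and in 16.0% of all 32851 windows. TGANTCA (AP-1) and GGGANNTCC (NF-κB) also occurred in 0 of the 8 windows, and in 7.81% and 4.30% of all windows. TGTGGT occurred in the first Spp1 window alone, 1 of 8, and in 16.8% of all windows. A match is a run of letters and not a site that was shown to be bound.

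The GOF library held 10796 barcodes with 113596685 UMIs, and the WT libraries held 2649 to 6253 barcodes with 9558637 to 43737469 UMIs. Kept cells had a median of 7503 UMIs in the GOF library, against 5852, 3541 and 2205 in WT libraries 1, 2 and 3, while the mitochondrial share of a barcode had a median of 2.99% in the GOF library and 10.1% to 14.8% in the WT libraries. The GOF matrix was made with a later Cell Ranger version than the WT matrices, so genotype and software cannot be told apart. Libraries shared 5 to 19 barcodes per pair. In an unsupervised clustering, GOF epithelium, fibroblasts and macrophages lay mostly in other clusters than the WT cells of the same class. The lone GOF library was assumed to vary like the WT libraries in every test. Levels are given as CPM, the UMIs of a gene per 1000000 UMIs of all cells of a class in 1 library; as 3′ counts they are set side by side within a gene and not between genes. The level of Ctnnb1 itself was 276 CPM in GOF epithelium, against 576, 555 and 448 CPM in the 3 WT epithelia; the labels do not say which part of the gene was altered, so 3′ counts do not check the allele.

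Each of the 8409 GOF cells and of the 4185, 2091 and 1653 WT cells that were assigned took its class from 8 fixed marker genes per cell type, at least 3 of them detected. Cells left unassigned were 8.89% of kept cells in the GOF library, against 3.44%, 13.4% and 19.7% in WT libraries 1, 2 and 3. The epithelium comprised 4659 GOF cells and 2938, 1394 and 1033 WT cells, and a median of 7 of 8 epithelial markers was detected per cell in the GOF library, against 6, 5 and 4 in the WT libraries. Within it, cells with at least 2 UMIs of Muc6, a gel-forming mucin of gastric and biliary glands, were set apart as Muc6-positive: 114 GOF cells and 29, 57 and 90 WT cells. This gate used raw UMIs, so shallow cells with Muc6 can fall into the Muc6-negative class. Median UMIs were 11494.5 in Muc6-positive against 8066 in Muc6-negative GOF cells. In WT libraries 1, 2 and 3 they were 11389, 8215 and 8540 against 7568, 3777 and 2489. The part of depth in contrasts between these classes was not tested. Macrophages numbered 1366 in the GOF library, against 84, 130 and 106 in the WT libraries, and fibroblasts 477 against 95, 194 and 204.

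Spp1, the ligand (ENSMUSG00000029304; chr5:104435118-104441050, plus strand), was highest in Muc6-positive epithelium in each library, among the classes with at least 20 cells in every library. In Muc6-positive cells Spp1 stood at 9244 CPM in the GOF library and 5938, 6453 and 2748 CPM in WT libraries 1, 2 and 3. In Muc6-negative cells it stood at 4358 CPM in the GOF library and 1948, 2645 and 1403 CPM in the WT libraries. Each library had more Spp1 in its Muc6-positive cells, by 2.12-fold in the GOF library and 3.05-, 2.44- and 1.96-fold in the WT libraries. Across the WT libraries the level was 5046 ± 2007 CPM in Muc6-positive and 1999 ± 622 CPM in Muc6-negative cells (SD, n = 3), and the log2 difference was 1.29 (SE 0.22, adjusted p = 0.0104 by edgeR's quasi-likelihood fit, blocked by library). Of all 10556 genes tested in this comparison 3.48% were called; of the 6 members tested, Spp1 alone was called. The call was lost without WT replicate 2 (adjusted p = 0.254, log2 difference 1.29) and without the replicate block (adjusted p = 0.117, log2 difference 1.32).

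**Figure D1:**
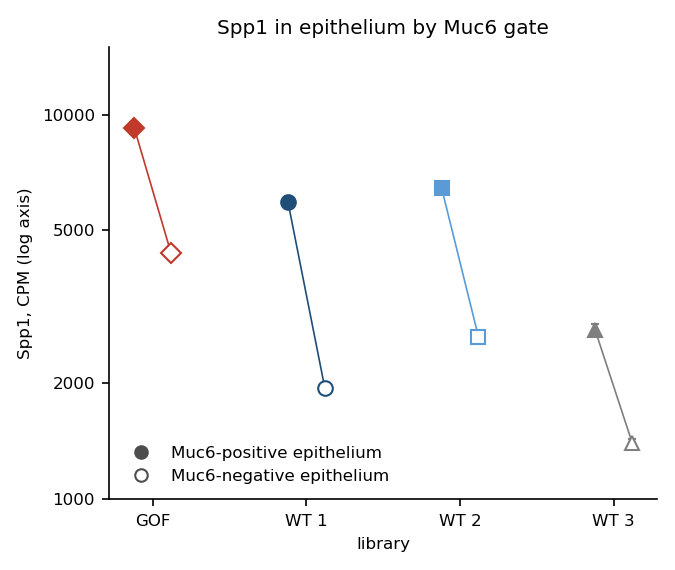
Spp1 level (CPM, log axis) in Muc6-positive (filled) and Muc6-negative (open) epithelium of each library, joined by a line; bars are exact Poisson intervals of the count and mostly lie within the symbols. In each library the filled point is higher, and the GOF points, 9244 and 4358 CPM, stand above those of all WT libraries in the same class.

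No other member differed detectably between Muc6-positive and Muc6-negative WT cells. Itgav, the αv chain, had the most negative log2 difference of the members, -0.67 (SE 0.27, edgeR adjusted p = 0.258), and rested on 14, 34 and 19 UMIs in the Muc6-positive WT cells. It reached 27.3, 38.9 and 17.7 CPM in Muc6-positive cells of WT libraries 1, 2 and 3, against 75.9, 57.4 and 17.2 CPM in their Muc6-negative cells. Libraries 1 and 2 were lower in Muc6-positive cells, and library 3 was about level. Cd44 stood at 315, 231 and 375 CPM in Muc6-positive and 517, 354 and 206 CPM in Muc6-negative WT cells, so that the libraries disagreed in direction. Of the other genes of the pathway, Fn1 (fibronectin, an RGD ligand) was lower in Muc6-positive cells at 0.434-fold (edgeR adjusted p = 0.0326), and Mmp7 (matrilysin, a protease that cleaves osteopontin) at 0.467-fold (edgeR adjusted p = 0.00676). Mmp7 was at 95.7, 99.5 and 618 CPM in Muc6-positive WT cells, against 192, 212 and 1410 CPM in Muc6-negative WT cells. No other gene of the 6 pathway lists passed, among 42 tested.

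The spread of Spp1 among single epithelial cells was wide in every library. Each cell was thinned to 2000 UMIs so that depths matched, which left out shallower cells and kept 4243 GOF cells and 2825, 1271 and 769 WT cells. At least 1 Spp1 UMI was found in 95.3% of GOF epithelial cells (exact 95% interval 94.6% to 95.9%) and in 77.8%, 84.3% and 60.5% of WT cells; without thinning the shares were 97.4% and 90.9%, 91.97% and 67.3%. The median thinned cell had 7 Spp1 UMIs in the GOF library, against 3, 4 and 1 in the WT libraries. The tenth of cells with most Spp1 held 33.8% of all Spp1 UMIs in the GOF library, against 38.7%, 35.7% and 49.3% in the WT libraries. B cells, which should lack the gene, gave a share of 1.79% in WT library 1 (exact 95% interval 0.0452% to 9.55%, median depth 2511 UMIs). In the GOF library the B cell share was 13.6% of 22 thinned cells (exact 95% interval 2.91% to 34.9%). Without thinning it was 62.5% of 32 cells in the GOF library, at a median depth of 3604.5 UMIs, against 7.41% of 81 cells in WT library 1. The level of Spp1 in B cells was 138 CPM in the GOF library and 18.5 CPM in WT library 1.

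GOF epithelium had more Spp1 than every WT library, but the difference did not pass the test. Spp1 reached 4541 CPM in the GOF library and 2007, 2935 and 1643 CPM in the WT libraries, a GOF over WT log2 ratio of 0.70 (SE 0.34, adjusted p = 0.202 by edgeR). Of the 15598 genes tested in this comparison, 15.7% were called, 1813 higher and 636 lower; without TMM factors, which moved the median log2 fold change to 0.36, the split was 2970 higher and 306 lower. Within the GOF epithelium, 1 cluster of 600 cells was picked for its high Spp1 level. Muc6 and Gkn3 (gastrokine 3) led it, and Tff2 (trefoil factor 2) was also among its leading genes. It made up 12.9% of the cells and 27.9% of the Spp1 UMIs. Most of its cells were not Muc6-positive, since that gate held 114 GOF cells in all. Spp1 was at 9669 CPM in the cluster against 3768 CPM in the other 4059 GOF epithelial cells, and Itgav at 167 CPM against 60.6 CPM. The cluster was chosen by its Spp1 value, so no test was made of that difference. WT epithelium lay in other clusters. Its Spp1 ranged in the larger ones from 1152 CPM in WT library 1 and 867 CPM in WT library 2 (cluster 12, with Cd44 at 672 and 590 CPM) to 4363, 6856 and 2941 CPM in WT libraries 1, 2 and 3 (cluster 15, with Cd44 at 271, 203 and 365 CPM). Cluster 15 was led, over cells outside the epithelium, by Clca1, Guca2a, Itln1 and Mptx1. Muc2 and Muc6 were also among its leading genes, and Gkn3 and Tff2 were not. Whether Muc6-positive cells of GOF and WT ducts are the same cell type was not tested. In Muc6-positive cells alone, 0 of 6 tested members were called between GOF and WT, 0 had an unadjusted p under 0.05, and DESeq2 and limma-voom also called 0, where 11.0% of 9490 genes were called (810 higher and 233 lower; 1003 and 139 without TMM factors). The log2 fold change of Spp1 there was 0.68 (SE 0.43, edgeR adjusted p = 0.370). The effect on Spp1 in Muc6-positive cells minus that in Muc6-negative cells was -0.13 (SE 0.46, edgeR adjusted p = 1; 0.0775% of all genes were called in this interaction), within its error.

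Fibroblasts gave the largest GOF difference of any member in a tested class. Spp1 stood at 1990 CPM in GOF fibroblasts and at 102, 142 and 94.5 CPM in WT libraries 1, 2 and 3. These WT levels were about even, and no WT value came near the GOF value. The log2 fold change was 3.93 (SE 0.48), a 15.3-fold difference that passed the test (edgeR adjusted p = 0.00823), against 3.00% of 9296 genes called in this comparison. The call was lost without WT replicate 3 (adjusted p = 0.0915, log2 fold change 3.84), where no gene at all was called. In WT ducts Spp1 was lower in fibroblasts than in epithelium, with a within-library ratio of 0.0506, 0.0483 and 0.0575 (log2 difference -4.32, SE 0.26, edgeR adjusted p = 6.08e-07); in the GOF library the ratio was 0.438. The GOF-minus-WT effect was larger in fibroblasts than in epithelium by 3.21 on the log2 scale (SE 0.54, edgeR interaction blocked by library, adjusted p = 0.000848; 0.870% of all genes were called in this interaction).

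**Figure D2:**
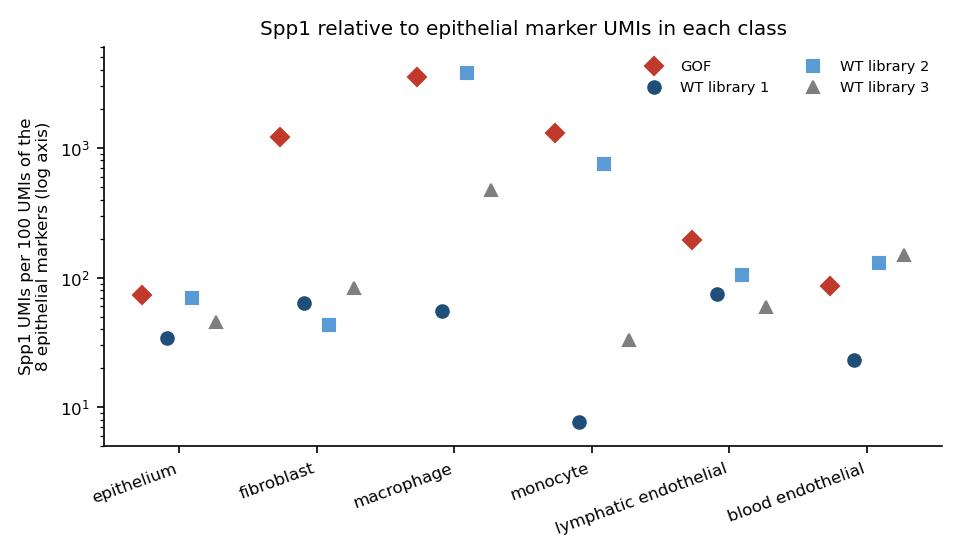
Spp1 UMIs per 100 UMIs of the 8 epithelial marker genes (log axis) in each cell class, with 1 point per library. Most points of the other classes lie above the epithelium of their own library. Below it lie the fibroblasts of WT library 2, the monocytes of WT libraries 1 and 3 and the blood endothelium of WT library 1. GOF fibroblasts stand at 1206, against 73.2 in GOF epithelium.

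The fibroblast signal sat in part of the fibroblasts. In the GOF library, 153 of 477 fibroblasts, 32.1% of the class, lay in 1 cluster that held 97.1% of its Spp1 UMIs. Spp1 was at 3161 CPM in these cells and at 150 CPM in the other 324 GOF fibroblasts. The genes that led the cluster over the other GOF fibroblasts were Serpinb2 (a serpin that inhibits plasminogen activators), Col24a1 (a fibrillar collagen), Tnc (tenascin-C, a matrix glycoprotein and integrin ligand) and Gatm (an enzyme of creatine synthesis). Cd44 was 317 CPM in the cluster and 71.5 CPM in the other cells, Itgav 178 and 84.3 CPM, and Itgb5 60.7 and 125 CPM. These values describe 1 library and a cluster that Spp1 helped to define and that was picked for its high Spp1 level, so no test was made of them. The whole cluster, 283 cells of any class before doublets were left out, came from the GOF library, with 0 cells from each WT library. The cluster that GOF and WT fibroblasts shared in all 4 libraries had Spp1 at 220 CPM in 29 GOF cells and at 125, 211 and 70.5 CPM in WT libraries 1, 2 and 3.

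**Figure D3:**
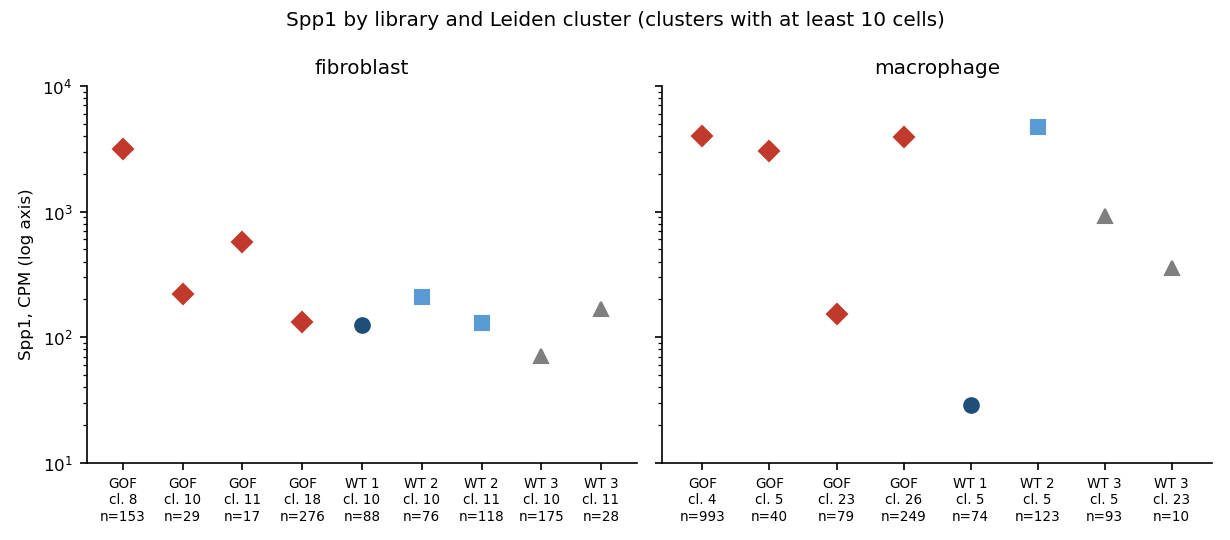
Spp1 level (CPM, log axis) of fibroblasts (left) and macrophages (right) within unsupervised clusters, 1 point per library and cluster with at least 10 cells of the class. The 153 GOF fibroblasts of cluster 8 stand at 3161 CPM, while the other fibroblast points of all libraries lie between 70.5 and 567 CPM.

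Markers of other cell types in these fibroblasts were measured as well. In the GOF cluster the 8 macrophage markers summed to 33.9 CPM, against 39.4 CPM in the other GOF fibroblasts, and the 8 epithelial markers to 154 CPM against 183 CPM. The fibroblast markers summed to 21048 CPM in the cluster and 30422 CPM in the other cells. The mural markers summed to 1737 CPM against 171 CPM, the mesothelial markers to 600 CPM against 155 CPM with a median of 3 against 0 of 8 detected per cell, and the monocyte list to 2295 CPM against 1020 CPM. The tuft markers summed to 595 CPM against 199 CPM, the lymphatic endothelial markers to 375 CPM against 161 CPM and the neutrophil markers to 60.7 CPM against 27.7 CPM. The blood endothelial markers were lower, at 128 CPM in the cluster and 976 CPM in the other cells. The 8 markers of the whole immune lineage summed to 30.7 CPM in the cluster and 39.9 CPM in the other cells. The monocyte list includes Vcan, which stood at 109 CPM in pooled WT fibroblasts and 0.136 CPM in pooled WT epithelium. The part of mural, mesothelial, monocyte, tuft, lymphatic or neutrophil RNA in the Spp1 value was not tested. Over all fibroblasts, Spp1 reached 1206 UMIs per 100 epithelial-marker UMIs in the GOF library, against 73.2 in GOF epithelium. In WT fibroblasts it was 64.1, 43.0 and 83.3, against 34.4, 69.5 and 45.3 in WT epithelium, so that WT fibroblasts lay above their epithelium in libraries 1 and 3 and below it in library 2. The share of thinned fibroblasts with an Spp1 UMI was 29.4% of 402 cells in the GOF library (exact 95% interval 24.9% to 34.1%) and 7.41%, 15.1% and 10.7% in the WT libraries; unthinned it was 53.5% and 14.7%, 35.1% and 12.7%. The thinned GOF share lay inside the interval of the GOF B cells and the unthinned share below their 62.5%, so the shares alone do not set GOF fibroblasts apart from background; the levels were 1990 CPM in GOF fibroblasts and 138 CPM in GOF B cells.

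The Spp1 level of macrophages differed widely among the WT libraries. The level was 3839 CPM in the GOF library and 76.1, 4639 and 858 CPM in WT libraries 1, 2 and 3. The GOF value lay inside the WT range, and in WT library 2 macrophages had 1.58 times the level of their own library's epithelium. The log2 fold change was 1.02 (SE 1.17, edgeR adjusted p = 0.646); without WT replicate 2 it was 3.07 (adjusted p = 7.32e-06). The macrophage effect on Spp1 minus the epithelial effect was 1.53 (SE 0.56, edgeR adjusted p = 0.142), in an interaction where 2.96% of all genes were called. Of 8085 genes tested, 9.76% were called, and of the 5 members tested 0 were called in either direction. At an unadjusted p under 0.05 there was 1 member, Itgav, and DESeq2 and limma-voom also called 0. The share of thinned macrophages with an Spp1 UMI was 70.3% in the GOF library (exact 95% interval 67.7% to 72.7%) and 5.06%, 82.3% and 31.9% in the WT libraries, with unthinned shares of 86.0% and 16.7%, 83.8% and 37.7% at median depths of 8107 and 5023.5, 5725.5 and 2849 UMIs. GOF and WT macrophages lay mostly in different clusters. Clusters 4 and 26 held 72.7% and 18.2% of the GOF macrophages, and cluster 5 held 2.93% of them (40 cells), against 88.1%, 94.6% and 87.7% of the macrophages of WT libraries 1, 2 and 3. In cluster 5 Spp1 was 3040 CPM in the GOF library and 28.8, 4740 and 919 CPM in WT libraries 1, 2 and 3. The 8 macrophage markers summed to 5463 CPM in GOF macrophages and to 18960, 9012 and 13770 CPM in WT macrophages.

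Macrophages of the GOF library were not uniform. Spp1 was 4023 and 3937 CPM in the largest 2 clusters of GOF macrophages, with 993 and 249 cells. It was 154 CPM in a cluster of 79 cells, in which Itgb5 stood at 455 CPM against 94.0 and 192 CPM in the larger ones. In monocytes the WT libraries stood in the same order as in macrophages: Spp1 was 1983 CPM in the GOF library and 14.1, 1122 and 42.7 CPM in the WT libraries, the first WT value from 1 UMI. The log2 fold change was 2.53 (SE 1.36, edgeR adjusted p = 0.335); in monocytes 3.25% of all tested genes were called. Without WT replicate 2 it was 6.19 and was called (adjusted p = 0.0193), and without WT replicate 1 or 3 it was 1.87 or 1.93 and was not called. Neutrophils had 964 CPM in the GOF library and 234, 1667 and 50.2 CPM in the WT libraries (log2 fold change 0.56, edgeR adjusted p = 0.974; 3.28% of genes called), the last WT value from 2 UMIs. The neutrophil log2 fold change was 2.33 without WT replicate 2, 0.024 without WT replicate 1 and 0.14 without WT replicate 3, and was called in none of these. Per 100 UMIs of the macrophage markers, Spp1 was 249 in GOF monocytes against 70.3 in GOF macrophages, and 1.59, 87.2 and 12.5 in WT monocytes against 0.401, 51.5 and 6.23 in WT macrophages.

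**Figure D4:**
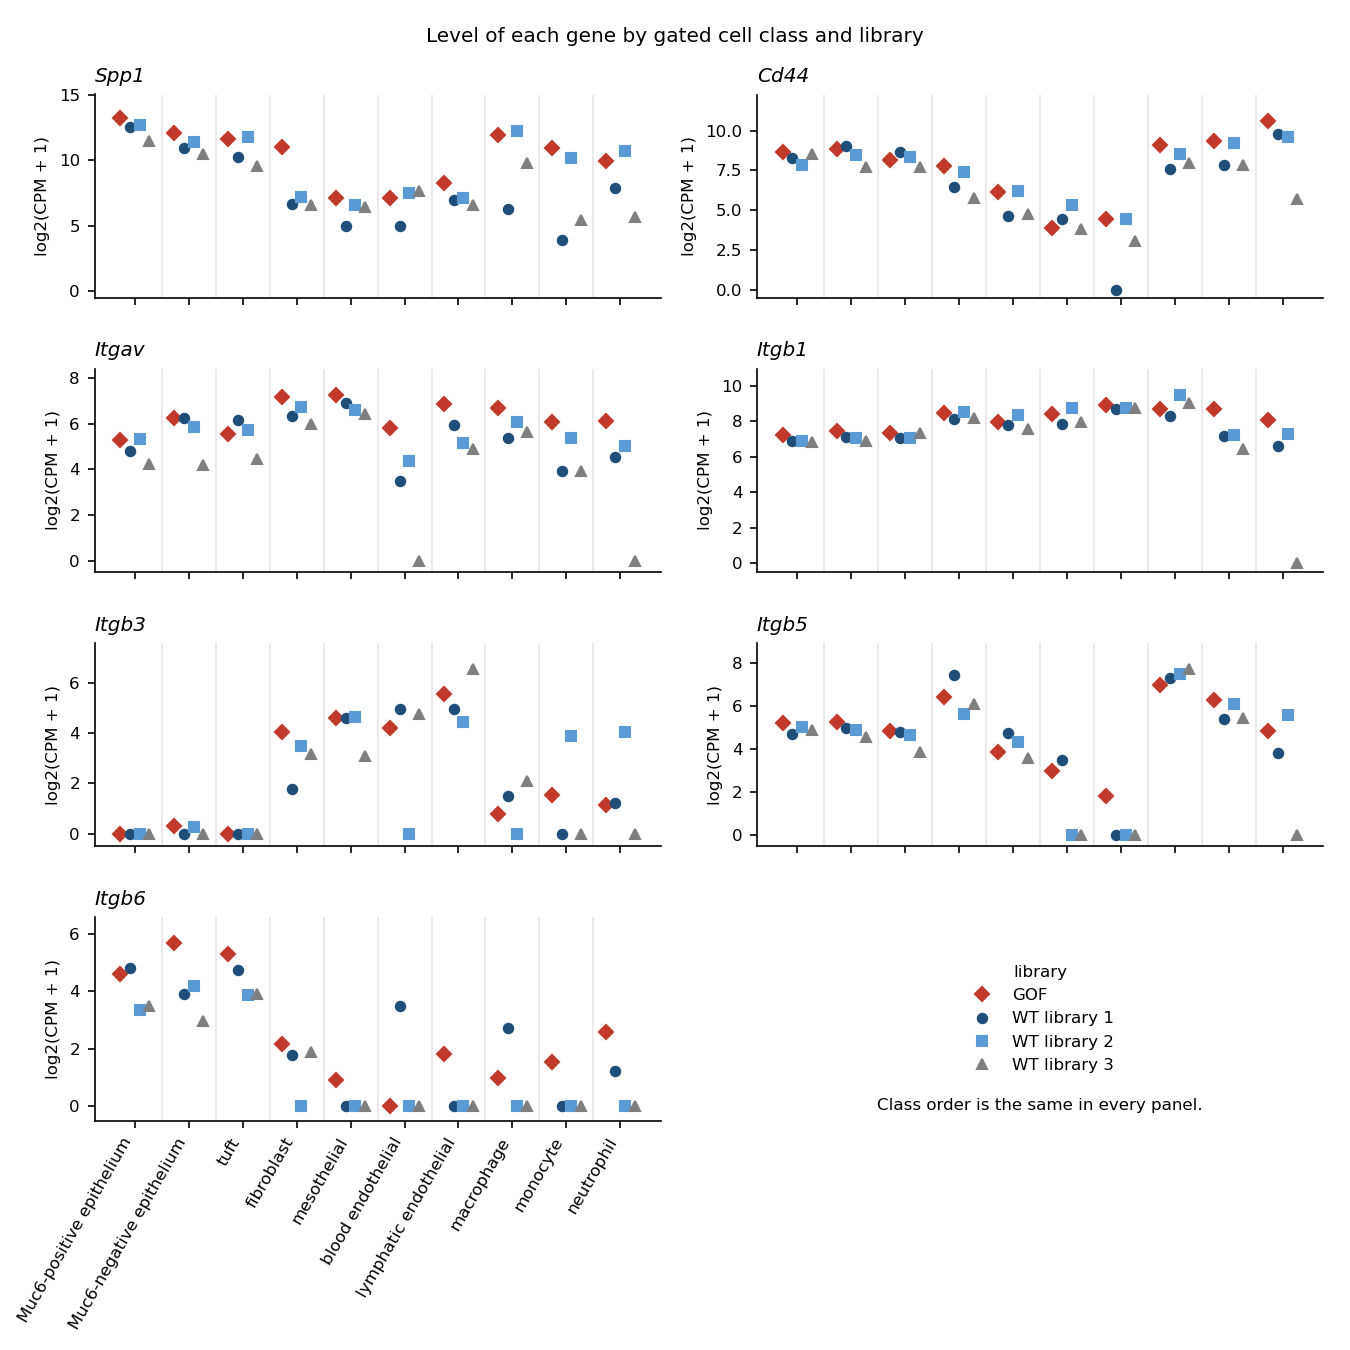
Level of each of the 7 genes, as log2(CPM + 1), in 10 cell classes, with 1 point per library. Spp1 is highest in Muc6-positive epithelium, Itgb6 is highest in epithelial and tuft cells, and the WT points for Spp1 in macrophages range from 76.1 to 4639 CPM.

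Among the remaining classes, lymphatic endothelium was the one with called members. Spp1 was 299 CPM in GOF lymphatic endothelial cells and 120, 134 and 94.4 CPM in the WT libraries (log2 fold change 1.19, SE 0.36, edgeR adjusted p = 0.0185). Itgav was 117 CPM in the GOF library and 59.8, 35.2 and 29.0 CPM in the WT libraries (log2 fold change 1.37, SE 0.47, edgeR adjusted p = 0.0430), and its call was lost without WT replicate 2 or WT replicate 3 (adjusted p = 0.214 and 0.0872). Both genes were thinly counted there, with 12, 19 and 13 UMIs of Spp1 and 6, 5 and 4 UMIs of Itgav in the WT libraries. Itgav has 71.8 kb of introns and was in the longest of 4 equal groups of genes by intron length. That group had a median log2 fold change of 1.00 in lymphatic endothelium, against -0.40 in the shortest group, where Spp1 belongs. The part of intronic reads in the Itgav value was not tested. In this class 14.6% of the 3569 genes tested were called. Spp1 per 100 epithelial-marker UMIs was 197 in GOF lymphatic cells and 75, 106 and 59.1 in WT cells, against 73.2 in GOF and 34.4, 69.5 and 45.3 in WT epithelium; the part of epithelial RNA was not tested. Over tuft, mesothelial, blood and lymphatic endothelial cells, monocytes and neutrophils, 2 of 26 tested pairs of member and class were called; the share of all genes called was 13.6% in tuft cells, 8.96% in mesothelial cells and 15.3% in blood endothelium. Mesothelial cells had 134 CPM of Spp1 in the GOF library and 30.2, 93.2 and 82.5 CPM in the WT libraries (edgeR adjusted p = 0.269). Blood endothelium had 138 CPM in the GOF library and 30.7, 178 and 198 CPM in the WT libraries, the GOF value inside the WT range (edgeR adjusted p = 0.952). Spp1 in tuft cells was 3178 CPM in the GOF library and 1231, 3488 and 764 CPM in the WT libraries (log2 fold change 0.63, edgeR adjusted p = 0.434). Without WT replicate 2 it was called (log2 fold change 1.49, adjusted p = 0.012), and without WT replicate 1 or 3 it was 0.39 or 0.28 and was not.

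Cd44, the receptor for hyaluronan and osteopontin (ENSMUSG00000005087; chr2:102811141-102901665, minus strand), was found in epithelium and in every immune class with enough cells. In epithelium it stood at 450 CPM in the GOF library and 514, 345 and 236 CPM in WT libraries 1, 2 and 3, so the GOF value lay inside the WT range (log2 fold change -0.05, SE 0.42, edgeR adjusted p = 0.943). Neutrophils had 1575 CPM in the GOF library and 877, 763 and 50.2 CPM in the WT libraries, the last from 2 UMIs. Macrophages had 539 CPM in the GOF library and 187, 375 and 252 CPM in the WT libraries; the GOF value was above all 3, but the log2 fold change of 0.96 did not pass (SE 0.46, edgeR adjusted p = 0.221). Fibroblasts had 222 CPM in the GOF library and 86.7, 170 and 54.0 CPM in the WT libraries (log2 fold change 0.85, SE 0.62, edgeR adjusted p = 0.566). Without WT replicate 2, Cd44 in fibroblasts was called (log2 fold change 1.48, adjusted p = 0.018). Of the fibroblasts of WT library 2, 60.8% lay in cluster 11 and 39.2% in cluster 10, with Cd44 at 195 and 40.9 CPM. Cluster 10 held 92.6% and 85.8% of the fibroblasts of WT libraries 1 and 3. Of all gated cells in cluster 11, 53.5% were mesothelial. The part of this composition in the Cd44 value was not tested. In WT ducts Cd44 was lower in fibroblasts than in epithelium (log2 difference -1.91, SE 0.35, edgeR adjusted p = 0.0014), with ratios of 0.169, 0.493 and 0.229. Blood endothelium had 13.8 CPM in the GOF library and 20.5, 39.5 and 13.2 CPM in the WT libraries, each from 4 UMIs or fewer.

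Itgb6, the β6 chain (ENSMUSG00000026971; chr2:60598292-60722643, minus strand), was an epithelial gene in these ducts and the 1 member called between GOF and WT epithelium. Its level was 49.8 CPM in the GOF epithelium, against 14.4, 16.4 and 7.50 CPM in the epithelium of WT libraries 1, 2 and 3. The GOF value was above all WT values. The log2 fold change was 1.59 (SE 0.35), a 3.01-fold difference (edgeR adjusted p = 0.0378), and it stayed past the threshold in each of 13 alternative settings, with adjusted p from 0.00273 to 0.0429. The share of thinned cells with an Itgb6 UMI was 8.77% in the GOF library (exact 95% interval 7.93% to 9.63%) and 2.73%, 2.83% and 0.910% in the WT libraries. Itgb6 has 117 kb of introns, and of 4 equal groups of genes by intron length the longest had a median log2 fold change of 0.76 in this comparison, against -0.37 in the shortest, where Spp1 (4.29 kb) belongs. Cd44, Itgav and Itgb5 were in the same longest group, with log2 fold changes of -0.05, 0.23 and 0.04. Whether intronic reads were counted is not given in the sources used here, and its part in the Itgb6 value was not tested. In Muc6-positive cells Itgb6 was 23.2 CPM in the GOF library and 27.3, 9.15 and 10.3 CPM in the WT libraries (log2 fold change 0.49, SE 0.50, edgeR adjusted p = 0.604). The effect in Muc6-positive cells minus that in Muc6-negative cells was -1.28 on the log2 scale (SE 0.51, edgeR adjusted p = 1). In WT ducts Itgb6 was lower in macrophages (log2 difference -2.90, edgeR adjusted p = 0.00592) and in fibroblasts (log2 difference -3.57, edgeR adjusted p = 0.00645) than in epithelium, from 3, 0 and 0 UMIs and from 1, 0 and 1 UMIs; both calls were lost without WT replicate 2 (adjusted p = 0.15 and 0.0651).

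**Figure D5:**
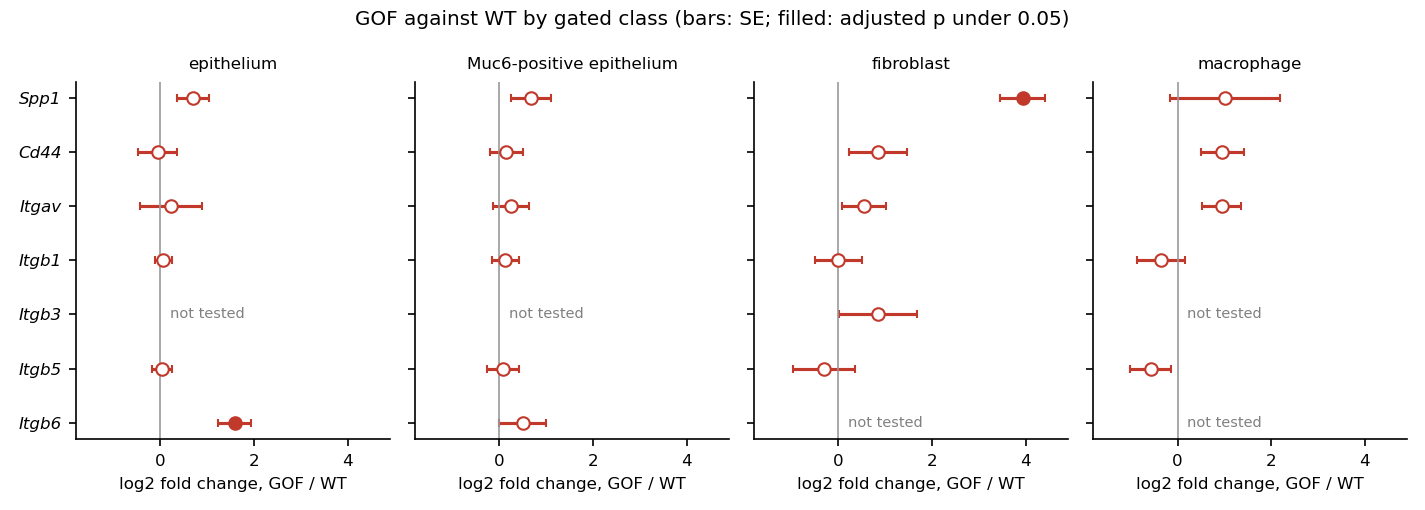
log2 fold change of each tested member, GOF over WT, in epithelium, Muc6-positive epithelium, fibroblasts and macrophages, with bars of ± 1 SE and filled points for an edgeR adjusted p under 0.05. The filled points are Itgb6 in epithelium (1.59) and Spp1 in fibroblasts (3.93).

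Itgav, the αv chain shared by the RGD-binding dimers (ENSMUSG00000027087; chr2:83724397-83806916, plus strand), was present in all classes described of the GOF library. In WT libraries 1, 2 and 3 it had only 1, 1 and 0 UMIs in blood endothelium and 17, 2 and 0 in neutrophils. In epithelium it stood at 74.6 CPM in the GOF library and 75.1, 56.0 and 17.3 CPM in the WT libraries, and the WT range held the GOF value (log2 fold change 0.23, SE 0.67, edgeR adjusted p = 0.835). In macrophages it stood at 103 CPM in the GOF library and 40.8, 65.6 and 49.1 CPM in the WT libraries (log2 fold change 0.94, SE 0.42, edgeR adjusted p = 0.186). In fibroblasts the values were 141 CPM in the GOF library and 79.2, 106 and 62.1 CPM in the WT libraries (log2 fold change 0.55, edgeR adjusted p = 0.626). The GOF library was above the WT range in 8 of 11 classes for Itgav and Itgb6, and in 7 for Spp1 and Itgb1. The count was 6 for Itgb5, 5 for Cd44 and 3 for Itgb3. These classes are not independent, since the epithelium is counted whole and in its parts. Of the classes above the range for Itgb6, lymphatic endothelium and monocytes each had 2 GOF UMIs against 0 WT UMIs. Mesothelial cells had 5 against 0, neutrophils 4 against 1 and fibroblasts 16 against 2. The same count was not made over all genes, so it does not set the members apart from other genes. These CPM also omit the TMM factors. Without those factors the median log2 fold change over all genes was 0.36 in epithelium. In the T, NK and innate lymphoid class, which had too few WT cells for a test, Itgav was 444 CPM in 210 GOF cells (277 UMIs) and 0, 22.3 and 0 CPM in 48, 29 and 8 WT cells (0, 1 and 0 UMIs).

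Itgb1, the β1 chain (ENSMUSG00000025809; chr8:128685654-128733200, plus strand), varied little among WT epithelia. In epithelium it stood at 172 CPM in the GOF library and 136, 132 and 117 CPM in the WT libraries (log2 fold change 0.07, SE 0.18, edgeR adjusted p = 0.822). The GOF value was above the WT range before the libraries were scaled by TMM factors, and the fold change includes those factors. In fibroblasts it was 357 CPM in the GOF library and 280, 364 and 292 CPM in the WT libraries (log2 fold change -0.00029, SE 0.50, edgeR adjusted p = 1.00). In WT ducts Itgb1 was higher in macrophages than in epithelium, at 312, 719 and 520 CPM against 136, 132 and 117 CPM (log2 difference 1.95, SE 0.27, edgeR adjusted p = 1.01e-05). It was also higher in fibroblasts than in epithelium (log2 difference 1.22, SE 0.25, edgeR adjusted p = 0.00277). Mural cells, with too few cells in WT library 1 for a test, had 1529 CPM in the GOF library and 790, 1112 and 1424 CPM in the WT libraries, the highest levels of this gene in any class.

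Itgb5, the β5 chain (ENSMUSG00000022817; chr16:33829665-33949338, plus strand), separated macrophages and fibroblasts from epithelium in WT ducts. In macrophages it stood at 126 CPM in the GOF library and 160, 183 and 213 CPM in the WT libraries, the 1 pair of member and class in which the GOF value was below the WT range. The log2 fold change there was -0.57 (SE 0.43, edgeR adjusted p = 0.461). WT epithelium had 31.2, 29.1 and 24.2 CPM, so that WT macrophages were higher by 2.71 on the log2 scale (SE 0.24, edgeR adjusted p = 2.41e-08). WT fibroblasts had 173, 48.9 and 67.5 CPM and were higher than epithelium by 1.54 (SE 0.31, edgeR adjusted p = 0.00287). GOF epithelium had 37.1 CPM, where the log2 fold change was 0.04 (SE 0.21, adjusted p = 0.923 by edgeR). Between WT macrophages and epithelium 43.0% of 11261 genes were called, and between WT fibroblasts and epithelium 32.7% of 11434 genes. Of the 6 members tested in each, 3 were called in macrophages and 5 in fibroblasts, with Spp1 in macrophages at a ratio to epithelium of 0.0379, 1.58 and 0.522 and not called (log2 difference -1.44, SE 0.66, edgeR adjusted p = 0.0855).

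Itgb3, the β3 chain (ENSMUSG00000020689; chr11:104608000-104670476, plus strand), was nearly absent from epithelial and macrophage counts. In epithelium there were 13 UMIs in the GOF library, against 0, 2 and 0 in the WT libraries, too few for a test. Lymphatic endothelium had 46.9 CPM in the GOF library and 29.9, 21.1 and 94.4 CPM in the WT libraries, the GOF value inside the WT range (log2 fold change -0.25, SE 0.82, edgeR adjusted p = 0.873). Mesothelial cells had 23.2 CPM in the GOF library and 23.7, 23.8 and 7.50 CPM in the WT libraries (edgeR adjusted p = 0.968). In fibroblasts it was 15.7 CPM in the GOF library and 2.48, 10.3 and 8.10 CPM in the WT libraries, from 1, 11 and 3 WT UMIs, where the log2 fold change was 0.84 (SE 0.84, adjusted p = 0.684 by edgeR).

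Further genes of the pathway were taken from 6 lists. In epithelium 13 of 64 tested genes of these lists were higher in the GOF library and 0 lower, by edgeR's quasi-likelihood test at an adjusted p under 0.05, where 15.7% of all genes tested were called. Among other RGD-binding or osteopontin-binding integrin subunits 2 of 6 were higher: Itga9 (the α9 chain) at 8.08 CPM in the GOF library and 0.293, 1.05 and 0.167 CPM in the WT libraries (12.6-fold), and Itgb7 at 3.31 CPM against 0.322, 0.436 and 0.500 CPM (6.47-fold). Of the 13 collagen-, laminin- and leukocyte-type subunits only Itgb4, the hemidesmosome chain, was higher, at 63.9 CPM in the GOF library and 29.2, 30.1 and 29.8 CPM in the WT libraries (1.67-fold). Among ligands of these integrins 3 of 9 were higher. Thbs1 (thrombospondin 1) reached 210 CPM in the GOF library and 5.22, 14.4 and 9.83 CPM in the WT libraries (17.1-fold). Cyr61 (CCN1) reached 282 CPM in the GOF library and 12.7, 23.2 and 11.7 CPM in the WT libraries (13.9-fold), and Ctgf (CCN2) 16.1 CPM in the GOF library and 3.87, 5.67 and 3.83 CPM in the WT libraries (2.83-fold). The median log2 fold change of the ligand list was 1.02, against -0.0017 over all genes tested. These differences were not particular to epithelium. In the GOF library Cyr61 was also higher in tuft (11.2-fold), mesothelial (3.88-fold) and blood endothelial cells (13.8-fold). Thbs1 was also higher in tuft (12.7-fold) and mesothelial cells (4.05-fold) and neutrophils (14.9-fold). Itga9 was also higher in tuft (5.24-fold) and lymphatic endothelial cells (4.13-fold). Cyr61, Thbs1 and Itga9 were called in neither fibroblasts nor macrophages.

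Adaptors and kinases of integrin adhesions also included higher genes, 5 of 15 tested, beside the same 15.7% of all genes called. Vcl (vinculin) stood at 204 CPM in the GOF library and 47.4, 34.4 and 26.0 CPM in the WT libraries (4.41-fold, edgeR adjusted p = 0.0104). Ptk2 (focal adhesion kinase) stood at 60.8 CPM in the GOF library and 19.99, 15.5 and 10.2 CPM in the WT libraries (3.07-fold). Fermt2 (kindlin-2) was higher by 2.38-fold and Ptk2b by 1.87-fold. Vcl was also higher in GOF tuft (3.21-fold) and mesothelial cells (5.32-fold). Ptk2 was also higher in GOF tuft (2.53-fold), mesothelial (3.29-fold), blood endothelial (3.66-fold) and lymphatic endothelial cells (4.53-fold). Vcl and Ptk2 were called in neither fibroblasts nor macrophages. Over all genes tested, the group with the longest introns had a median log2 fold change of 0.76 in epithelium and 0.68 in tuft cells. That median was 0.62 in mesothelial cells, 1.31 in blood endothelium and 1.00 in lymphatic endothelium. The part of intronic reads in the values of the 6 lists was not tested. Of 16 hyaluronan and CD44 partners Cd74, a MIF receptor chain that pairs with CD44, was higher, at 584 CPM in the GOF library and 115, 109 and 37.7 CPM in the WT libraries (5.24-fold). Of 5 genes that process osteopontin Mmp12 was higher, with 109 UMIs in the GOF library and 0 in all WT libraries together, which is at least 30.7-fold higher against a floor of 3 counts over the WT group. Cd74 and Mmp12 are also expressed by macrophages, whose markers summed to 28.0 CPM in GOF epithelium and 5.39, 21.2 and 31.2 CPM in WT epithelium; their part was not tested. In Muc6-positive cells 6 of 42 tested list genes were higher in the GOF library and 0 lower (Itga9, Thbs1, Cyr61, Cd74, Vcl and Ptk2), against 11.0% of all genes called.

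In fibroblasts 2 of 53 tested list genes were higher in the GOF library and 0 lower, where 3.00% of all genes were called, a share near that of the lists. Tnc had 801 UMIs in the GOF library (173 CPM) and 0 in the WT libraries, at least 106-fold higher against 3 counts over the WT group (edgeR adjusted p = 0.00673). Tnfaip6, whose product modifies hyaluronan matrix, stood at 248 CPM in the GOF library and 59.4, 36.6 and 48.6 CPM in the WT libraries (4.60-fold, edgeR adjusted p = 0.0313). In macrophages 6 of 41 tested list genes were higher and 1 was lower, where 9.76% of all genes were called and the GOF and WT cells lay mostly in different clusters. Itga5, the fibronectin-receptor α5 chain, stood at 92.7 CPM in the GOF library and 20.4, 21.1 and 42.6 CPM in the WT libraries (3.46-fold). Itgax (CD11c) stood at 225 CPM in the GOF library and 1.86, 35.1 and 29.5 CPM in the WT libraries (9.84-fold), and Mmp12, the macrophage elastase, at 500 CPM in the GOF library and 9.28, 44.5 and 118 CPM in the WT libraries (9.31-fold). Has1, a hyaluronan synthase, had 249 UMIs in the GOF library and 0 in the WT libraries, at least 11.3-fold higher against 3 counts over the WT group. Hmmr, a hyaluronan receptor that also marks dividing cells, was lower at 2.16 CPM in the GOF library and 20.4, 50.4 and 3.27 CPM in the WT libraries. The median log2 fold change of these 6 lists in macrophages ran from -0.54 to 0.88, against -0.07 over all genes tested.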

How the data were processed

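Mouse common bile duct cells were measured in 1 GOF and 3 WT droplet libraries. Raw UMI counts were deposited by the authors as 1 matrix a library, made with Cell Ranger 7.0.0 (GOF, 32285 genes) and 3.0.2 (WT, 31053 genes) per the file headers; the submitters' processing notes name Cell Ranger 7.1 and mm10. How intronic reads were treated is not given in the sources used here. Gene IDs in both references (30406) were kept.

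A barcode was kept with 500 or more genes and a mitochondrial share up to 25%. Scrublet's own threshold marked 273 GOF and 1, 2 and 10 WT cells, so the highest scores were left out at 0.8% per 1000 barcodes (872 GOF and 228, 65 and 45 WT cells). Cell classes came from fixed marker lists (a margin of 2 markers over any other lineage); 348 GOF and 184, 277 and 367 WT cells had exactly 3 markers. Clusters (scanpy 1.11.5, Leiden in igraph 0.11.9) were an alternative and are referred to by number. Because cells are not replicates, the test used the UMI sum of each class in each library, for classes of at least 20 cells in every library. Sums were tested with edgeR 4.0.16 in R 4.3.3 (quasi-likelihood, TMM, filterByExpr), with Benjamini-Hochberg adjustment over all genes at 0.05; CPM omit the TMM factors and fold changes include them. SE is the fold change over the root of F. GOF fits had 2 residual degrees of freedom. Comparisons between classes kept the library as a block, because both sums of a pair came from the same library. On simulated counts for GOF epithelium (14841 genes) the fit recovered 20% of 2-fold and 100% of 8-fold changes, and for the WT Muc6 comparison (10354 genes) 39% and 100%. The simulation gave every gene a negative binomial dispersion of 0.05 and the same mean level in all libraries, apart from the added changes. Changed genes were drawn from those above 20 CPM. Recovery of genes at lower levels, or with a wider spread among libraries, was not measured. Intervals and floors (3 counts) cover counting error only, at a confidence of 95%. Each pair of WT libraries differed by more than sampling noise (chi-square per degree of freedom 58.4 to 136), so all 3 were kept.

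The members, marker lists and gene lists were chosen with earlier results of these data known. Named were all members, the 5 genes most like Spp1, Cd44 and Itgb6 over classes, and up to 4 called genes per list and comparison. Alternatives were DESeq2 1.42.0, limma-voom (limma 3.58.1), other scaling, no count filter, clusters, kept doublets, 4 markers, 10% mitochondrial UMIs, other Muc6 minimums, thinned cells, no block and leaving out each WT library. Coordinates and intron lengths are from GENCODE on GRCm38.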

Additional observations from a re-analysis of the deposited data

Results flagged for a closer look

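The GOF-minus-WT difference of Spp1 differed between fibroblasts and epithelium by the test of the difference itself. On the log2 scale the fibroblast effect was larger by 3.21 (SE 0.54, edgeR adjusted p = 0.000848 with the library as a block). Spp1 stood at 1990 CPM in GOF fibroblasts and 102, 142 and 94.5 CPM in WT fibroblasts, and at 4541 CPM in GOF epithelium and 2007, 2935 and 1643 CPM in WT epithelium. Leaving out each WT library in turn or the TMM factors gave 3.08 to 3.26, with adjusted p from 7.24e-07 to 0.000581.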

How the results depend on the processing

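Over single members, 508 values kept their direction and side of the threshold in the alternatives, 17 came to pass it, 7 no longer passed it and 33 changed sign; no call was reversed. The cause of these changes was not tested. Genes called in GOF epithelium (2449) numbered 4951 with limma-voom and 1186 to 3415 without 1 WT library. In Muc6-positive cells (1043) they numbered 484 with DESeq2, 1565 with no count filter and 1035 to 1430 without 1 WT library. In fibroblasts (279) they numbered 451 without TMM, 869 with no filter, 1283 by clusters (3 members called, with Cd44 and Itgav) and 0 to 965 without 1 WT library (0 to 2 members called). In macrophages (789) they numbered 494 with DESeq2, 1249 with limma-voom, 1404 with no filter and 1035 to 1068 without 1 WT library (0 to 1 members called). For WT Muc6-positive against Muc6-negative cells (367 genes, 1 member) there were 876 genes and 2 members with no filter, 93 genes and 0 members with no replicate block, and 281 to 674 genes and 0 to 3 members without 1 WT library; the block changed the call of no other member in a WT comparison. With at most 10% mitochondrial UMIs, 2705 genes (4843) were called for WT macrophages and 1798 (3744) for WT fibroblasts against epithelium, where leaving out 1 library gave 3519 to 4432 and 3039 to 3590 genes. The Muc6 interaction (10 genes) gave 17 with at least 1 and 6 with at least 5 Muc6 UMIs, and 16 to 85 without 1 WT library. The macrophage interaction gave 0 to 1 members without 1 WT library, with Spp1 called at adjusted p = 0.0215 without WT replicate 2 and 0.0143 without WT replicate 3; the fibroblast interaction (131 genes) gave 157 to 313 genes. The other 6 classes gave 1 to 3 called members.

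Sign changes concerned members that were not called. Cd44 in GOF epithelium (-0.05) was 0.30 without TMM, 0.039 with limma-voom, 0.015 with no filter, 0.0084 by clusters, 0.20 at 10% mitochondrial UMIs and 0.23 with thinned cells. Itgb1 in GOF fibroblasts (-0.00029) was 0.20 without TMM, 0.0068 with DESeq2 size factors, 0.0047 with DESeq2, 0.025 with limma-voom, 0.098 with no filter, 0.019 with 4 markers, 0.018 by clusters and 0.021 at 10% mitochondrial UMIs. Itgav at 10% mitochondrial UMIs was -0.048 in GOF epithelium and -0.18 in WT macrophages against epithelium, and Itgb5 in WT Muc6-positive against Muc6-negative cells was -0.051 with at least 1 and -0.16 with at least 5 Muc6 UMIs. Leaving out 1 WT library at a time gave the following ranges. In GOF epithelium Cd44 ran from -0.24 to 0.31, Itgav from -0.13 to 0.69 and Itgb5 from -0.0098 to 0.14. In GOF Muc6-positive cells Cd44 ran from -0.034 to 0.40, Itgav from -0.0084 to 0.57 and Itgb5 from -0.040 to 0.13. In GOF fibroblasts Itgb1 ran from -0.0999 to 0.15 and Itgb5 from -0.66 to 0.37, and Spp1 in GOF blood endothelium from -0.52 to 0.63. In WT Muc6-positive against Muc6-negative cells Cd44 ran from -0.70 to 0.17, Itgb5 from -0.058 to 0.27 and Itgb6 from -0.18 to 0.78. In WT macrophages against epithelium Cd44 ran from -0.72 to 0.069 and Itgav from -0.21 to 0.68.

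Without TMM factors the median log2 fold change was 0.36 in GOF epithelium, 0.21 in Muc6-positive cells and 0.15 in fibroblasts. The macrophage interaction then had 124 positive and 359 negative calls, against 209 and 242 with TMM. The limit of 10% mitochondrial UMIs gave no value for the Muc6 comparisons, because too few Muc6-positive cells were left in a WT library. Counts of a few UMIs limit Itgb3, and Itgb6 outside epithelium.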

Other observations

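Over the mean levels of 12 WT cell classes, the genes with a profile most like that of Spp1 were Kcnn4, a calcium-activated potassium channel gene (Pearson r = 0.92 of log2(CPM + 1)), Clint1 (0.89), Mien1 (0.88), Galnt3, an O-glycosylation enzyme gene (0.88), and Ctse, the gene of cathepsin E (0.88). For Cd44 they were Pak1 (0.93), Arf6 (0.91), Stxbp2 (0.89), Ufsp2 (0.89) and Hk2 (0.89). For Itgb6 they were Hnf4g, an epithelial transcription factor gene (0.95), St14 (0.95), Lad1 (0.91), Tox3 (0.90) and Vsig2 (0.90). Among the members, Spp1 went with Cd44 (0.75) and Itgb6 (0.73) and against Itgb3 (-0.84). The classes share libraries and differ in depth, so these values describe profiles only.

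Cells that met no class gate had Spp1 at 1882 CPM in the GOF library and 1260, 1174 and 1083 CPM in WT libraries 1, 2 and 3. The T, NK and innate lymphoid class had Spp1 at 495 CPM in the GOF library and 47.8, 1357 and 110 CPM in the WT libraries, the last from 1 UMI, which is the order of the macrophages in the same libraries.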
